A study of Acipenser ruthenus with 35 samples.

Results

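A group of 100 transcripts of the sterlet, Acipenser ruthenus, leaned towards the animal end of small oocytes and was evenly spread, on average, along big oocytes. The transcripts were chosen by their measured shares. The 5-section sum had to be at least 100 scaled counts in both stages, each section had to hold between 15% and 25% of that sum in big oocytes, and in small oocytes the animal section had to hold the largest share and more than 25%. Of 49027 transcripts in the tables, 18537 had the required sum, 10482 of these were even in big oocytes, 1465 were animal in small oocytes, and 337 were both. The 100 with the highest animal share in small oocytes are described here. Of the other transcripts that were animal in small oocytes, 686 were animal in both stages, 362 had their largest share, over 25%, in the vegetal section of big oocytes, and 80 had some other profile there.

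The data came from TOMO-Seq, in which a single frozen oocyte is cut along the animal-vegetal axis, the slices are pooled into 5 sections named A (extreme animal), B, C, D and E (extreme vegetal), and each section is sequenced as 1 library. Small oocytes were early vitellogenic, with diameters of 1320 to 1500 µm, and big oocytes were advanced vitellogenic, with diameters of 1920 to 2100 µm. No treatment was given. Big oocytes 1, 2, 3 and 11 gave 17 libraries, and small oocytes 5, 6, 7 and 8 gave 18. Oocytes 11 (A and B) and 7 (C, D and E) were incomplete and took no part in the choice of the transcripts. All big oocytes came from 1 female and all small oocytes from another, and big oocytes also entered library preparation with more RNA, so stage, female and RNA input cannot be told apart. Sections of 1 oocyte share a cell, and the oocytes of a stage share a female.

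The oocyte is a single very large cell, and its nucleus lies towards the animal pole late in its growth. Yolk platelets that accumulate during vitellogenesis fill the vegetal part. The RNA stored in the oocyte serves the embryo before its own genes are switched on. In fishes and amphibians some of these maternal RNAs are anchored near one pole, and those at the vegetal pole include germ cell determinants.

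The section labels were checked with 3 transcripts that the study's primer list names. The share of A for exd2, named for an exonuclease, was 90.5% ± 1.68 in small and 92.6% ± 2.43 in big oocytes (SD, n = 3 each). For slc44a3, named for a choline transporter-like protein, it was 82.9% ± 4.82 and 81.1% ± 3.64. For dnd1, whose product protects germ cell RNA in zebrafish, the share of E was 31.9% ± 1.27 in small and 53.1% ± 4.14 in big oocytes. Samples had been selected by RT-qPCR for continuous marker gradients, so these values are a check of labels only. Big libraries held 1816470 to 11348306 counts (median 4455798) and small libraries 1653598 to 6817459 (median 4397616). The 100 transcripts together took between 0.924% and 1.74% of the counts of a big library and between 0.494% and 1.17% of a small one. Scaled counts were obtained by dividing each library by its median-of-ratios size factor, so every section weighs the same in a sum, whatever its volume or RNA content, and a value measures the composition of the RNA and not its amount.

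Apart from these 3 markers, the identifiers were not paired with gene names in the files used here, and 0 of them matched the 80041 genes of the RefSeq table, so no roles are given for the 100 transcripts. The 100 transcripts came from 100 different components of the assembly, and 26 of them came from its genome-guided part, against 28.0% of the 18537. Another 24 transcripts from the components of 19 of the 100 had the required sum. Of these, 3 were animal in small oocytes, and 1 of the 24 also met every condition but ranked outside the 100. Related contigs can share reads that the counting divides by estimate, so a value of 1 contig may hold part of another.

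In small oocytes the median share of A over the 100 transcripts was 28.2% (range 27.2% to 41.6%), against 19.8% over the 18537. The medians were 18.4% for B, 16.2% for C, 16.6% for D and 19.9% for E. The shares were thus lowest in the central and vegetal sections C and D. The median of E was near that of the 18537, while those of B, C and D were below theirs. E was the second highest section for 65 transcripts, B for 23, C for 7 and D for 5. The lowest section was C for 48, D for 31, E for 15 and B for 6. In big oocytes the medians were 20.9%, 20.1%, 19.4%, 18.4% and 20.8% from A to E, and the highest section was E for 36 transcripts, A for 30, B for 23, D for 8 and C for 3. Counts of the highest, second and lowest sections are given for the 100 only, with no share over all transcripts beside them. The shares of A in small oocytes and the evenness in big oocytes are what the rule used, and they are given as a description with no test.

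**Figure D1:**
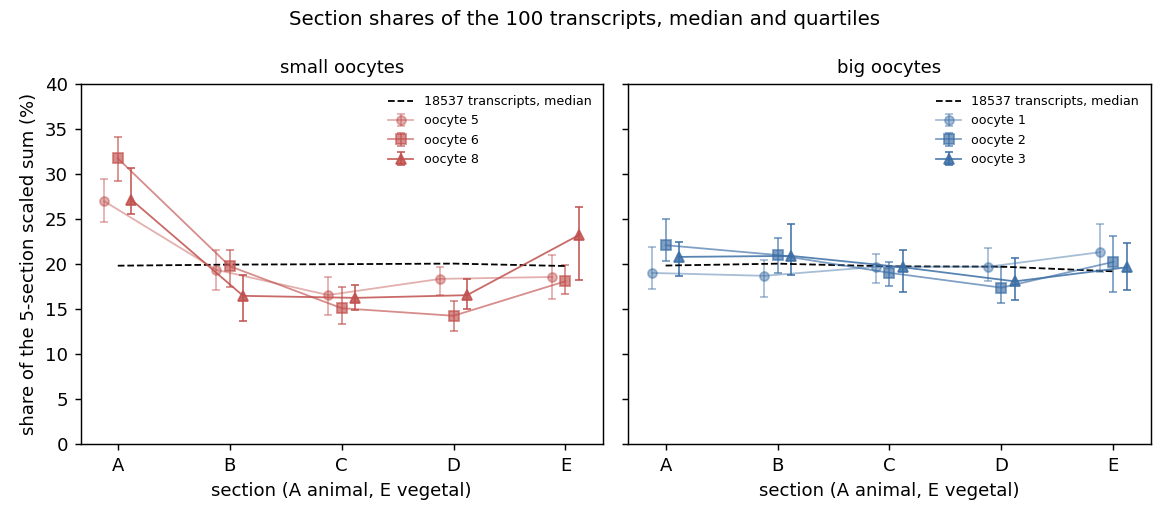
Share of the 5-section scaled sum (%) in sections A to E of each complete small oocyte (left) and big oocyte (right), as the median over the 100 transcripts with quartiles as bars, and the median over 18537 transcripts as a dashed line. In small oocytes the medians of A were 26.9%, 31.7% and 27.1% in oocytes 5, 6 and 8, and in big oocytes the medians of every section stayed near 20%.

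The animal lean was not equally strong in the 3 small oocytes. A was the highest section for 88 transcripts in oocyte 5, for 95 in oocyte 6 and for 73 in oocyte 8. It was highest in all 3 for 57 transcripts, in exactly 2 for 42 and in 1 oocyte for 1, and the share of A was over 25% in all 3 oocytes for 51. Oocyte 6 gave the highest share of A for 67 of the 100, oocyte 8 for 18 and oocyte 5 for 15. The SD of the share of A over the 3 small oocytes had a median of 4.48 percentage points, and over the 3 big oocytes of 2.77. Many of these values rest on few reads, with a median of 61.5 counts per A library of small oocytes (range 12 to 28654). The 5-section sum in small oocytes had a median of 276 scaled counts, was under 200 for 40 transcripts and at least 1000 for 14.

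The evenness in big oocytes was a property of the mean more than of single oocytes. All 5 shares lay between 15% and 25% in each of big oocytes 1, 2 and 3 for only 8 of the 100 transcripts, against 5085 (48.5%) of the 10482 transcripts that were even by their means. Within 1 oocyte the window held 51 of the 100 in oocyte 1, 46 in oocyte 2 and 47 in oocyte 3, and 15 transcripts were inside it in none. The 100 also had lower sums in big oocytes than the 18537 (medians of 364 and 594 scaled counts). The sums of the 10482 were not compared, and the part of low counts in the difference in evenness was not tested.

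The rule was then applied with 1 small oocyte left out, so that the share of A could be read in an oocyte that had not taken part in the choice. With oocyte 5 left out, the 100 transcripts chosen had a median share of A of 29.9% in the 2 oocytes that chose them and of 24.0% in oocyte 5. With oocyte 6 left out the medians were 28.0% and 26.9%, and with oocyte 8 left out 29.7% and 25.2%. The medians over the 18537 in the oocytes left out were 19.9%, 19.8% and 19.9%. A was the highest section in the oocyte left out for 61, 68 and 51 of the chosen transcripts with oocytes 5, 6 and 8 left out, against 25.2%, 30% and 24.6% of the 18537. In the oocyte left out, the chosen transcripts were thus higher in A than transcripts at large at the median, and lower than in the oocytes that chose them, by the least in oocyte 6. Of the 100 transcripts described here, 68, 61 and 72 were among those chosen without oocytes 5, 6 and 8.

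**Figure D2:**
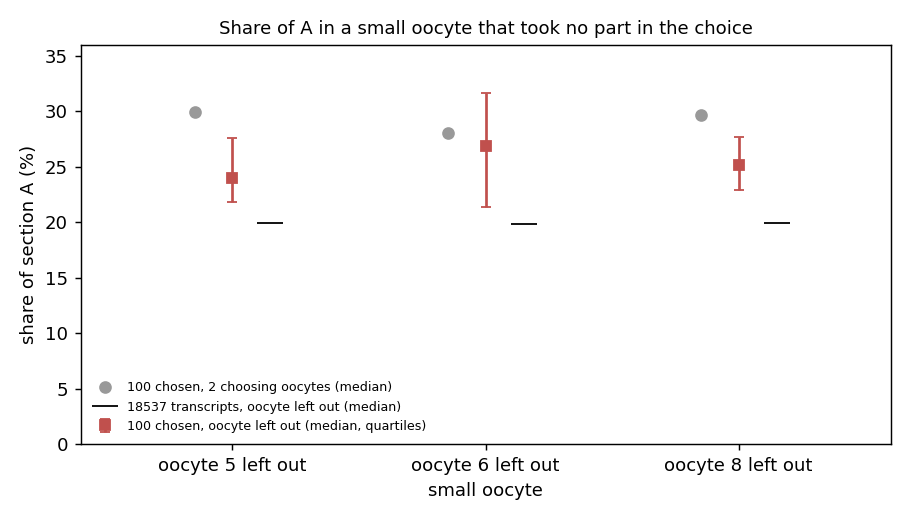
Share of section A (%) for 100 transcripts chosen without 1 small oocyte, in the 2 oocytes that chose them (grey, median) and in the oocyte left out (red, median and quartiles), with the median over 18537 transcripts in the oocyte left out as a black line. The red medians were 24.0%, 26.9% and 25.2%, all above the black lines at 19.8% to 19.9%.

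With 1 big oocyte left out, evenness in the oocyte that took no part was about as frequent as among transcripts at large. Of the 100 chosen, 39, 44 and 44 had all 5 shares between 15% and 25% in big oocytes 1, 2 and 3, against 44.2%, 46.1% and 45.8% of the 18537. A was the highest section there for 23, 50 and 17 of the chosen transcripts, against 25.9%, 29.5% and 23.7% of the 18537. The median share of A was 18.4%, 22.4% and 21.2%, against 19.6%, 19.9% and 19.6%. Big oocyte 2 thus showed an animal lean when it took no part in the choice. In oocyte 11, which the rule did not use, the log2 ratio of A to B had a median of -0.18 over the 100 transcripts and of -0.02 over the 18537. The transcripts animal in both stages had a median of 1.01 there. The same ratio over the 100 had medians of 0.04, 0.12 and -0.08 in big oocytes 1, 2 and 3, and of 0.47, 0.67 and 0.72 in small oocytes 5, 6 and 8, which took part in the choice. No animal lean was therefore seen in A against B in the fourth big oocyte, which was 1 oocyte with 2 libraries.

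The highest share of A in small oocytes belonged to TRINITY_DN47771_c0_g1_i1_2, at 41.6%. In small oocytes 5, 6 and 8 its scaled counts in A were 38.7, 68.6 and 91.5, and in B they were 17.8, 21.4 and 21.2. In big oocytes 1, 2, 3 and 11 its counts in A were 23.5, 22.5, 33.9 and 39.9, and in B 16.8, 34.3, 28.3 and 39.4. In small oocytes every A library was above every B library, whereas in big oocytes the A and B libraries overlapped. This is a scarce transcript, with 36, 44 and 51 unscaled counts in the small A libraries, and its total over the sections overlapped between stages. A more abundant contig of the same component, TRINITY_DN47771_c0_g1_i6_1, had a 5-section sum of 801 scaled counts in small oocytes. That contig was nearly flat there, with 21.4% in A and 18.5% in D, its lowest section.

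The transcript next in rank, TRINITY_DN46387_c0_g1_i1_1, held 40.9% in A. Its scaled counts in A were 290.0, 430.1 and 321.0 in small oocytes 5, 6 and 8, and 62.5, 93.8, 101.2 and 29.2 in big oocytes 1, 2, 3 and 11. All 3 small A libraries were above all 4 big A libraries. Section E of small oocyte 8, at 322.0, was about as high as A of that oocyte. In section E of big oocytes it held 336.6, 21.6 and 137.4 scaled counts in oocytes 1, 2 and 3, so that its even mean joined a vegetal profile in oocyte 1 with a low vegetal end in oocyte 2. Its total per oocyte was 784, 886 and 934 in small oocytes and 735, 432 and 620 in big oocytes. The stages did not overlap in this total, and the difference of -0.54 ± 0.19 (log2, big minus small, SE) passed the threshold (adjusted p = 0.0624, edgeR). This transcript was named for its share of A in small oocytes. The small A libraries are part of the total, so its fall is not independent of the choice.

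The most abundant member by far was TRINITY_GG_45939_c0_g1_i1_1, a genome-guided contig with 27.3% of its sum in A of small oocytes. Its scaled counts in A were 30773, 27045 and 26876 in small oocytes 5, 6 and 8, and 38777, 47134, 28621 and 32804 in big oocytes 1, 2, 3 and 11. In C they were 16697, 11829, 14080 and 19382 in small oocytes 5, 6, 7 and 8, and 48031, 38812 and 32342 in big oocytes 1, 2 and 3. The C libraries of the stages did not overlap, and the A libraries did, through big oocyte 3. In small oocyte 8 section E, at 35020, was above A, at 26876. Its total was 116534, 87432 and 117436 in small and 235035, 215497 and 174217 in big oocytes, a difference of 0.96 ± 0.18 (log2) past the threshold (adjusted p = 0.00945, edgeR).

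The next in abundance was TRINITY_DN6173_c0_g1_i1_2, with 38.7% in A of small oocytes. Its scaled counts in A were 6092, 4296 and 3312 in small oocytes 5, 6 and 8, and 4669, 4813, 2202 and 4801 in big oocytes 1, 2, 3 and 11, which overlapped. Small oocyte 8 held more in E, at 4128, than in A. In section D they were 1897, 979, 1030 and 1169 in small oocytes 5, 6, 7 and 8, and 9077, 2002 and 2003 in big oocytes 1, 2 and 3. Big oocyte 1 stood far above the others in sections C, D and E. The total difference of 0.81 ± 0.41 (log2) did not pass the threshold (adjusted p = 0.178, edgeR).

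**Figure D3:**
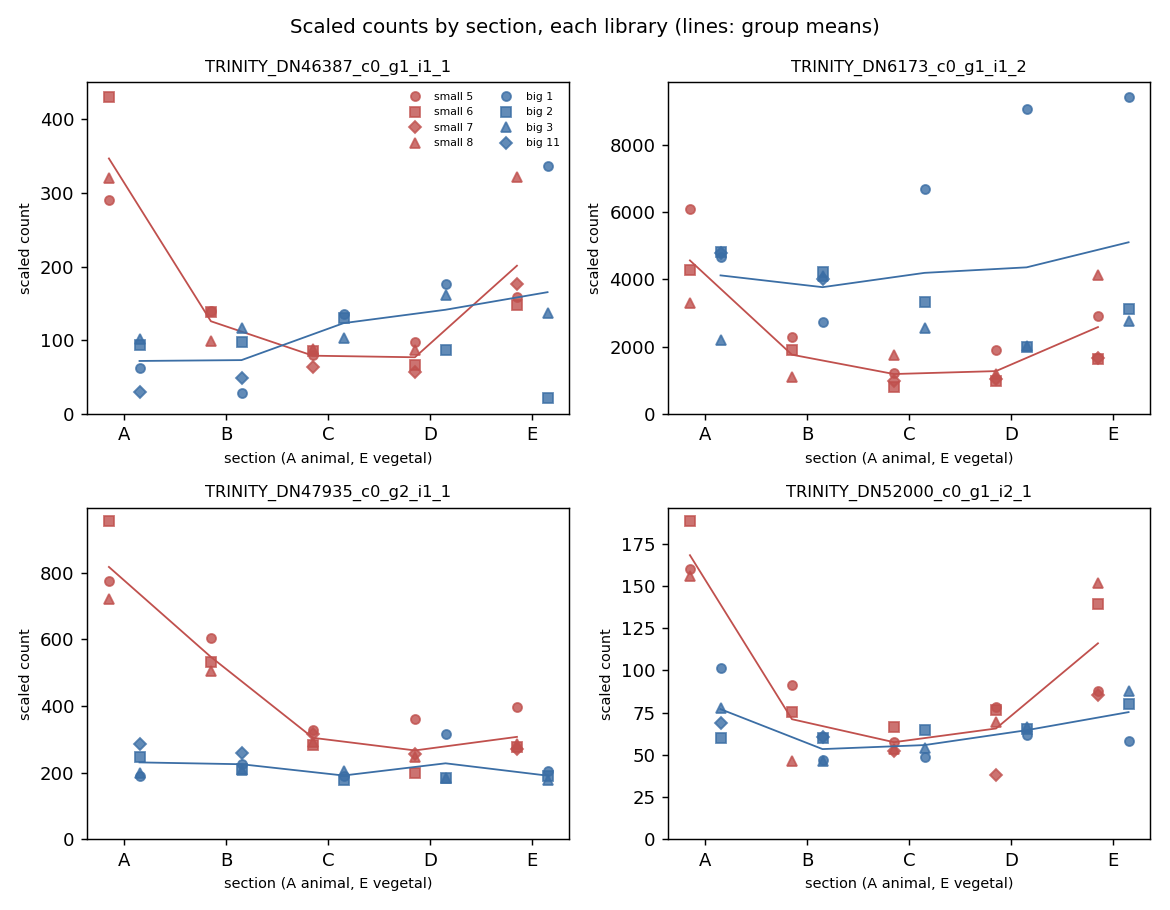
Scaled counts of 4 of the transcripts in every library, by section from A (animal) to E (vegetal), with small oocytes in red, big oocytes in blue and lines through the group means. For TRINITY_DN47935_c0_g2_i1_1 the 3 small A libraries lay between 721 and 955 and the 4 big A libraries between 191 and 287.

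At the limit of the choice, the last 3 transcripts inside held 27.198%, 27.181% and 27.176% in A of small oocytes and the first 3 outside held 27.172%, 27.162% and 27.161%. The last inside was TRINITY_DN45440_c0_g1_i1_1 and the first outside TRINITY_DN52763_c2_g2_i1_1. In A of small oocytes 5, 6 and 8 the last inside held 55.8, 57.7 and 30.5 scaled counts, and in D it held 46.8, 25.5 and 27.3, so the sections overlapped.

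The first question on what the rule did not set was how sections B to E of small oocytes were ordered among themselves. It was measured as a gradient, the average log2 level of D and E less that of B and C, fitted over the 30340 transcripts with a sum over 20 and with oocyte as a block, and the threshold was an adjusted p (Benjamini-Hochberg, edgeR quasi-likelihood test) of 0.1. Towards the vegetal side 2 of the 100 passed, against 4.57% of all transcripts tested, and towards the animal side 2, against 1.59%. The median gradient was 0.06 over the 100 and -0.01 over all. Both counts were small and near the shares over all tested, so nothing particular to the 100 is read from them. A profile low in C and D and higher in B and E gives little slope in this contrast.

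The steepest animal slope was that of TRINITY_DN47935_c0_g2_i1_1. Its scaled counts in B were 604, 533 and 506 in small oocytes 5, 6 and 8, and in D they were 361, 200.2, 258 and 249 in oocytes 5, 6, 7 and 8, with no overlap. The gradient was -0.51 ± 0.07 (adjusted p = 7.06e-07, edgeR) and had the same sign in oocytes 5, 6 and 8. In big oocytes its A libraries, at 191, 246, 200 and 287, overlapped its E libraries, at 205, 189 and 180. Its total fell from 2526, 2298 and 2095 in small to 1124, 1012 and 976 in big oocytes, a difference of -1.15 ± 0.08 (log2, adjusted p = 5.96e-07, edgeR) with no overlap. The other animal slope, of TRINITY_DN54395_c0_g5_i1_1, was -0.45 ± 0.15 (adjusted p = 0.0989, edgeR), and it did not pass without small oocyte 5, 7 or 8.

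The steepest vegetal slope was that of TRINITY_DN52000_c0_g1_i2_1, whose profile in small oocytes was high at both ends. Its scaled counts in A were 160.0, 188 and 156 in small oocytes 5, 6 and 8. In C they were 57.4, 66.5, 52.5 and 53.8, and in E 87.9, 139, 85.5 and 151, in small oocytes 5, 6, 7 and 8. Every E library was above every C library and no E library reached an A library. The gradient over B to E was 0.53 ± 0.14 (adjusted p = 0.0286, edgeR), and it did not pass without small oocyte 6 (adjusted p = 0.261) or 8 (0.31, adjusted p = 0.398). The other vegetal slope, of TRINITY_DN41004_c0_g1_i1_1, was 0.30 ± 0.10 (adjusted p = 0.0851, edgeR), and it too did not pass without oocyte 6 or 8.

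A different contrast within the same fit compared section E with the mean of C and D. It was chosen after the higher medians of E had been seen in the same libraries, and C, D and E of oocytes 5, 6 and 8 are part of the sum behind the share of A, so its counts describe that observation and are no independent test of it. E was above the mean of C and D past the threshold for 27 of the 100, against 6.15% of all transcripts tested. With edgeR it was below for 0 of the 100, against 2.37%, and 4 of the 100 were below at an unadjusted p under 0.05. With DESeq2 the counts were 19 above and 0 below. The median difference was 0.25 (log2) over the 100 and -0.000914 over all transcripts tested. The median share of E itself was 19.9% over the 100 and 19.8% over the 18537, so the contrast reflects low shares of C and D. The 27 lay between 0.24 and 1.34, and 24 of them had a difference above 0 in each of small oocytes 5, 6, 7 and 8.

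In single oocytes the median of E against C and D over the 100 was 0.15 in oocyte 5, 0.29 in oocyte 6, 0.09 in oocyte 7 and 0.49 in oocyte 8, on the log2 scale. The medians over the 18537 were between -0.00913 and -0.00243. The difference was above 0 for 65, 79, 63 and 78 of the 100 in oocytes 5, 6, 7 and 8, against 48.8%, 48.5%, 49.8% and 49.2% of the 18537. Oocyte 7, the only one of the 4 that took no part in the choice, had the smallest median, also above that of the 18537, and oocyte 8 had the largest. Without oocyte 8 the count past the threshold was 11, against 4.7% of all tested. Without oocyte 7 it was 15, against 4.75%, and without oocyte 6 it was 17, against 5.57%. The fit without the oocyte as a block gave 17, against 5.14%.

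**Figure D4:**
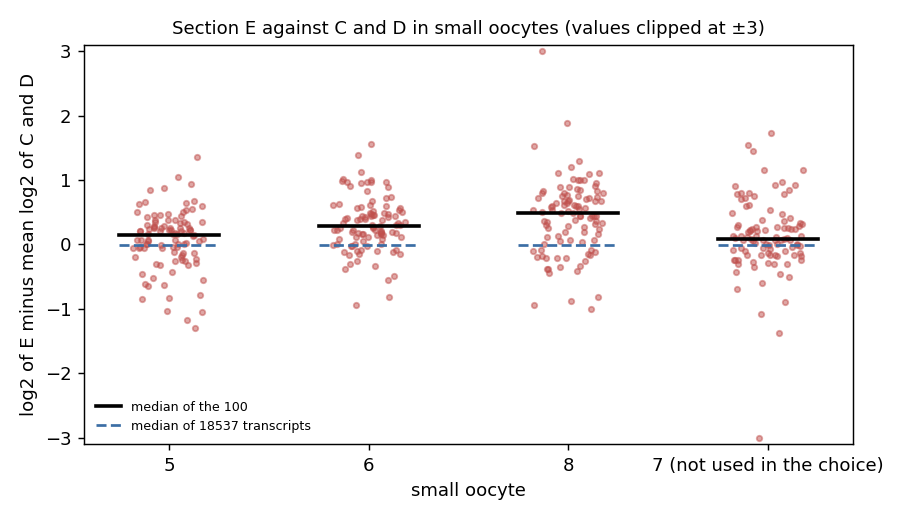
Log2 level of section E minus the mean of C and D in each small oocyte, 1 point per transcript for the 100 transcripts (values beyond the axis are drawn at its ends), with their median in black and the median over 18537 transcripts as a dashed line. The black medians were 0.15, 0.29, 0.49 and 0.09 in oocytes 5, 6, 8 and 7, all above the dashed lines near 0.

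The calls were counted by rank of the share of A, with no test of the difference. Sections C, D and E of small oocytes 5, 6 and 8 enter both the share of A and this contrast. The counts by rank are therefore not independent of the ranking, and nothing is read from them. Of the 10 transcripts with the highest share of A, 8 had E past the threshold above C and D, and of the top 25 there were 13. Of the 25 with the lowest share there were 5. For TRINITY_DN46387_c0_g1_i1_1 the scaled counts in E were 159, 148, 177 and 322 in small oocytes 5, 6, 7 and 8, and in C 79.2, 85.6, 63.2 and 87.4, a difference of 1.34 ± 0.21 against C and D (adjusted p = 0.00227, edgeR). For TRINITY_DN47771_c0_g1_i1_2 the scaled counts in E were 17.3, 31.8, 25.6 and 59.2 and the difference was 1.06 ± 0.25 (adjusted p = 0.00381, edgeR). These were the largest among the 24 called transcripts whose difference was above 0 in every small oocyte. Both abundant members were called as well, TRINITY_GG_45939_c0_g1_i1_1 at 0.59 ± 0.14 and TRINITY_DN6173_c0_g1_i1_2 at 1.05 ± 0.28, but neither was without small oocyte 5 or 7, nor the latter without oocyte 6.

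The same contrast is given for the groups most like the 100. E was past the threshold above C and D for 2.77% of the 686 transcripts animal in both stages, with a median of -0.02, and for 48.6% of the 362 that were animal in small and vegetal in big oocytes, with a median of 0.53. The 100 were also cut to the highest shares of A (at least 27.2%), whereas the other groups began near 25%, and the differences between the groups were not tested.

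Between stages, the change in section A and in the rest of the oocyte was compared on the jointly scaled counts. The log2 ratio of big to small oocytes in A had a median of -0.56 over the 100 and of 0.01 over the 18537. In the sum of B to E the medians were 0.04 and 0.02. The rule picked high shares of A in small oocytes and even shares in big oocytes, so the ratio in A was set largely by the choice, and nothing is read from it. For the 686 transcripts animal in both stages, the median was 0.08 in A and -0.40 in B to E.

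The total per oocyte was tested between the 3 complete oocytes of each stage, over 33209 transcripts. It was higher in big oocytes for 21 of the 100, against 28.8% of all tested and 30.5% of the 18537. It was lower for 39, against 28.7% and 31.2%. The other 40 did not pass the threshold. A change of over 1.5-fold was called higher for 7 and lower for 13. Shares over all transcripts were not counted for this size of change, so nothing is read from these counts. The median difference was -0.19 over the 100 and 0.00243 over all. Of the 686 transcripts animal in both stages, 11.4% were higher and 50.9% lower, with a median of -0.26. Of the 362 animal in small and vegetal in big oocytes, 38.7% were higher and 26% lower, with a median of 0.10. Lower totals were thus not particular to the 100, and the differences between these groups were not tested. The totals of the stages did not overlap for 20 transcripts that were higher in big oocytes and 37 that were lower, against 29.6% and 29.5% of all tested. The libraries of section A that chose the transcripts are part of the small totals, so these counts are not independent of the choice. Fewer copies and a larger pool of other RNA cannot be told apart in scaled counts.

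**Figure D5:**
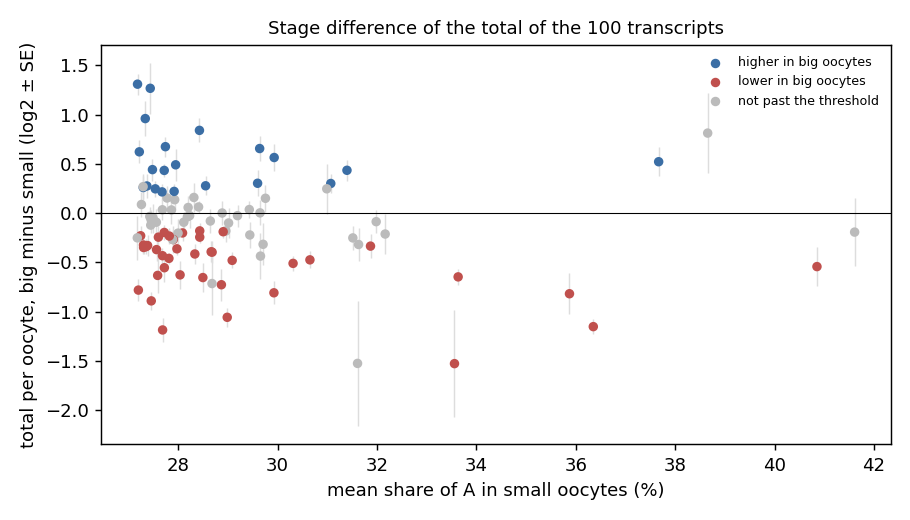
Difference of the total per oocyte between stages (log2, big minus small, with SE as bars) against the mean share of section A in small oocytes (%), for each of the 100 transcripts, with those past the threshold in blue (21 higher) and red (39 lower). The fitted differences ranged from -1.53 to 1.31.

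The largest rise was that of TRINITY_GG_109611_c0_g1_i1_1, from a total of 122, 118 and 142 in small oocytes 5, 6 and 8 to 329, 319 and 299 in big oocytes 1, 2 and 3. The difference was 1.31 ± 0.11 (log2, adjusted p = 1.36e-06, edgeR). In A the scaled counts were 26.8, 28.0 and 48.4 in small and 71.5, 66.3, 66.5 and 39.9 in big oocytes 1, 2, 3 and 11, so the complete oocytes did not overlap but oocyte 11 lay within the small range. Its small total was close to the minimum the rule set, and its A library of small oocyte 8 stood above those of oocytes 5 and 6. For TRINITY_DN50181_c2_g1_i2_1 the totals were 133, 204 and 97.0 in small and 300, 341 and 403 in big oocytes, a difference of 1.27 ± 0.26 (adjusted p = 0.00667, edgeR). In A its scaled counts were 36.5, 59.2 and 23.3 in small oocytes and 52.1, 77.6, 71.9 and 74.4 in big oocytes 1, 2, 3 and 11, where small oocyte 6 overlapped the big ones. In small oocyte 8 its A was below B, at 26.3, and E, at 41.1. It had 0 counts in C of small oocyte 8 and in E of small oocyte 7. Another contig of its component, TRINITY_DN50181_c2_g1_i3_1, held 17.4% in A of small oocytes.

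The largest fitted fall was that of TRINITY_DN35102_c0_g2_i1_1, whose totals were 260.2, 806 and 317 in small oocytes 5, 6 and 8 and 169, 144 and 166 in big oocytes. Small oocyte 6 stood far above the other small oocytes, with 351 scaled counts in A against 70.9 and 87.9. The fall of -1.53 ± 0.55 (log2) passed the threshold (adjusted p = 0.0802, edgeR) but not without big oocyte 1, 2 or 3 (adjusted p from 0.173 to 0.213). Without small oocyte 6 it was -0.85 (adjusted p = 0.000447, edgeR), smaller than that of the next transcript, which was -1.23 without this oocyte. This next transcript, TRINITY_DN41322_c0_g1_i1_1, had totals of 228, 228 and 270 in small and 95.6, 117 and 106 in big oocytes, and a difference of -1.19 ± 0.12 (adjusted p = 9.3e-06, edgeR). In A its scaled counts were 49.4, 77.9 and 68.1 in small and 15.8, 25.02, 17.98 and 2.66 in big oocytes 1, 2, 3 and 11, the last from 1 unscaled count. All small A libraries were above all big ones.

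The tests across all 5 sections used the values that chose the transcripts, and their counts describe only how many members were far enough from flat for these tests. The section test passed for 68 of the 100 in small oocytes (15.1% of all tested, 19.1% of the 18537). In big oocytes it passed for 32 (54% of all tested, 67.6% of the 18537). It passed in small and not in big oocytes for 41, in both for 27, in big oocytes alone for 5 and in neither for 27. The interaction of stage and section, fitted with no term for the oocyte, passed for 40 of the 100 (28.8% of all tested). That was near the 40.1% of the 18537. Of the 40, 21 were among the 41. The small test passed for 19 of the 40 transcripts whose small sum was under 200 and for 49 of the 60 with a larger sum. Without small oocyte 6 the small test passed for 44, against 10.9% of all tested, and the interaction for 17, below the 21.9% of all tested. Without big oocyte 3 the big test passed for 19, against 40.1% of all tested.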

How the data were processed

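According to the methods and labels, the authors used Trimmomatic for trimming, SortMeRNA to take out mitochondrial and ribosomal sequences, and kallisto 0.43.1 with a de novo assembly of the species. The deposited estimated counts are whole numbers. The authors deposited a normalized signal per stage, which is the counts divided by DESeq2 size factors, and undoing the division gave back the counts for 100% of values (tolerance 1e-06). Shares came from this signal. Tests used edgeR 4.0.16 (R 4.3.3, quasi-likelihood, robust) on the counts with median-of-ratios scaling, transcripts with a sum over 20, Benjamini-Hochberg adjustment and a threshold of 0.1. Rules in the text that name transcripts took the highest share, the highest sum, the limit, and the 2 largest changes in each direction past the threshold with a like direction in every complete oocyte. Scaled counts of single libraries were scaled over all 35 libraries, and totals were scaled again between oocytes. Ratios in single oocytes used a pseudocount of 0.5. The scripts were tested on simulated data.

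The transcripts and the rules were chosen with earlier results of these data known. The contrast of E with C and D, and the window applied to single big oocytes, were added after the data had been seen. The oocyte number pairs libraries of 1 cell: deviations from the group means correlated on average at 0.0896 within small oocytes and 0.147 within big oocytes, against -0.0306 and -0.054 between different oocytes, so it was kept as a block within a stage. The interaction of stage and section was fitted without this block, as in the study. Its adjusted p-values therefore treat the sections of 1 oocyte as independent. Alternatives were TMM and library-total scaling, DESeq2 1.42.0, other filters, no block, and leaving out each oocyte. With 1 female per stage, no p-value measures the spread between females. Those of the totals rest on the spread between oocytes of a female. Those of the fits with a block rest on how section differences vary between her oocytes.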

Additional observations from a re-analysis of the deposited data

Results flagged for a closer look

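In 65 sets of 4 libraries of the named transcripts, single values were judged by their gap to the nearest value over the range. The rate of about 1 set in 20 behind the cutoff assumes independent normal values. These sets share libraries, so the count is not compared with that rate. By this measure 8 single values lay far from the other 3. They were, in scaled counts, TRINITY_DN35102_c0_g2_i1_1 in B of big oocyte 3 at 41.6, TRINITY_DN46387_c0_g1_i1_1 in E of small oocyte 8 at 322.0, TRINITY_DN47771_c0_g1_i1_2 in C of small oocyte 8 at 38.1 and TRINITY_DN47935_c0_g2_i1_1 in E of small oocyte 5 at 398.6. The others were TRINITY_DN6173_c0_g1_i1_2 in A of big oocyte 3 at 2202 and in B of big oocyte 1 at 2726, and TRINITY_GG_109611_c0_g1_i1_1 in A of big oocyte 11 at 39.9 and in C of small oocyte 5 at 29.5.

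The interaction of stage and section, fitted with no term for the oocyte, passed the threshold for 8 named transcripts. The rule selected on this contrast, so these values are a description and no test, and over the 100 the share that passed, 40%, was near the 40.1% of the 18537 transcripts with the required sum. The adjusted p (edgeR) was 0.0699 for TRINITY_DN47771_c0_g1_i1_2, 0.00782 for TRINITY_DN46387_c0_g1_i1_1, 0.0924 for TRINITY_GG_45939_c0_g1_i1_1 and 0.0984 for TRINITY_DN41322_c0_g1_i1_1. It was 0.0361 for TRINITY_DN52000_c0_g1_i2_1, 0.00412 for TRINITY_DN41004_c0_g1_i1_1, 6.89e-05 for TRINITY_DN47935_c0_g2_i1_1 and 0.00642 for TRINITY_DN54395_c0_g5_i1_1.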

How the results depend on the processing

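Of 145 values of single named transcripts under the alternatives, 122 kept their direction and side of the threshold, 23 no longer passed it and 0 changed sign. The number of transcripts meeting the rule, 337, became 208 with a minimum sum of 200 and 130 with a window of 17% to 23%, and 269 to 543 with 1 oocyte left out. Of the 100, 58 stayed among those chosen with a minimum sum of 200, 53 with 50, 28 with the narrower window and 61 to 77 with 1 oocyte left out, while 90 met the rule under TMM and 76 under library-total scaling. Vegetal slopes over B to E, 2 as reported, became 1 with library-total scaling or DESeq2 and 0 to 2 with 1 oocyte left out, and animal slopes, also 2, became 1 with DESeq2 and 1 to 2 with 1 oocyte left out. Without the oocyte as a block, 0 vegetal and 1 animal slope passed, against 4.32% and 1.29% of all tested. In that fit 17 transcripts had E above C and D, against 5.14%. With 1 oocyte left out that number was 11 to 21, against 4.7% to 5.57%. E was then below for 0 to 2, against 1.16% to 1.94%. With library-total scaling E was below for 3, against 5.02%. The section test passed for 44 to 61 in small oocytes with 1 oocyte left out, against 10.6% to 13.3% of all tested. In big oocytes it passed for 19 to 39, against 40.1% to 53.2%. The interaction passed for 17 to 38, against 21.9% to 28.2%. The totals higher in big oocytes were 18 to 20 with 1 oocyte left out, against 25.7% to 28.4% of all tested. Those lower were 30 to 43, against 25.8% to 28.1%. The causes of these differences were not tested. Low counts limit most shares, and there is 1 female per stage.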
